A study of Mus musculus with 48 samples.

Results

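Whole skin from the dorsum of C57BL/6 mice was compared between 2 labelled stages of the hair cycle, competent telogen and early anagen. The comparison rests on 4 of the 48 samples of the series, namely 2 libraries labelled dorsal competent telogen, called DCT1 and DCT2 here, and 2 labelled dorsal early anagen, called DEA1 and DEA2. These 4 were picked by their labels alone, and every gene of the deposited table was compared across them. All mice were of the same strain, and no treatment, transgene or mutation was named for any group. Ages, sexes and the number of mice behind a library were not given in the sources used here. Nothing stated that the 2 libraries of a stage came from separate mice, so the spread between libraries of a group may be technical. The p-values rest on that spread pooled over 43 skin domain libraries in 18 groups, and not on the 4 dorsal libraries alone. The other samples cover further stages of dorsal skin, the ventral and chin skin and the ear.

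Hair follicles cycle between growth (anagen), regression (catagen) and rest (telogen). In telogen the follicle is short, holds a fully formed club hair and makes no new shaft. A telogen follicle is called competent when it can answer activating signals and refractory when it cannot. At the onset of anagen, WNT and Hedgehog signals between the dermal papilla, a cluster of fibroblasts at the follicle base, and the hair germ above it drive the epithelium to divide, while BMP signals hold stem cells at rest. The hair matrix then forms an inner root sheath, a hair cortex built from hair keratins and the keratin-associated proteins that crosslink them, and pigment supplied by melanocytes. The hair shaft genes come late in this sequence, once the bulb is built.

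Levels were read as FPKM, fragments scaled by transcript length and by the mapped fragments of the library, so that levels can be compared between genes. Depth was read from the smallest steps between FPKM values in genes of 1 transcript, which gave an estimate of 9191640 to 15154452 fragments for the 4 libraries, within the range of 6728111 to 23064494 over the 43 skin domain libraries. By the median over genes, DCT1 and DCT2 were closer to each other than any other of the 32 replicate pairs of the skin domains, while by the mean other pairs were closer. Their median squared difference was 1.26 times the variance that counting alone gives, against 1.61 times for DEA1 and DEA2, and the means were 3.56 and 7.47 times. These differences were above counting noise, which cannot tell whether the 2 libraries of a stage came from the same mouse or RNA. DCT1 and DCT2 were kept as 2 samples by their labels. With DCT1 or DCT2 left out, 7604 or 7512 genes passed the test in place of 9263.

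The stage labels were checked against markers of the hair shaft, the inner root sheath and dividing cells before the comparison was read. The libraries labelled competent telogen held the highest level of keratin-associated protein (KAP) transcripts of the 14 dorsal libraries. Summed levels are over all listed members in the table. The summed KAP level was 136856 and 135276 FPKM in the DCT libraries and 1453 and 1252 FPKM in the DEA libraries. It was 58397 to 60103 FPKM in mid anagen, 82080 to 83778 in late anagen, 88930 to 91981 in catagen and 87826 to 88933 in refractory telogen. KAP transcripts thus made up 13.1% and 13.0% of the summed FPKM of DCT1 and DCT2 and 0.164% and 0.140% of that of DEA1 and DEA2. The summed inner root sheath level was 24498 and 24160 FPKM in the DCT libraries and 8422 and 7949 FPKM in the DEA libraries, with 27803 to 28419 FPKM in mid anagen and 16831 to 17424 in refractory telogen.

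Mitosis genes were at an intermediate level in the libraries labelled competent telogen. Their summed level was 381 and 379.7 FPKM in the DCT libraries and 988 and 1001 FPKM in the DEA libraries. In refractory telogen, the other labelled rest stage, it was 127 to 133 FPKM, and in mid anagen, late anagen and catagen it lay between 553 and 780.0 FPKM. A resting follicle makes no shaft, so the shaft and sheath markers of DCT1 and DCT2 went against their label, and KAP transcripts were abundant in the refractory telogen libraries too. The label was kept as the name of the group and not replaced. The contrast below is therefore one between the libraries labelled competent telogen and those labelled early anagen, and the true stage of DCT1 and DCT2 cannot be told from these values. The dorsal comparison was also computed with the 2 dorsal refractory telogen libraries in place of DCT1 and DCT2, an alternative chosen after the data had been seen. The contrasts of the dorsal change with the ventral and chin changes were not computed with this baseline.

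**Figure D1:**
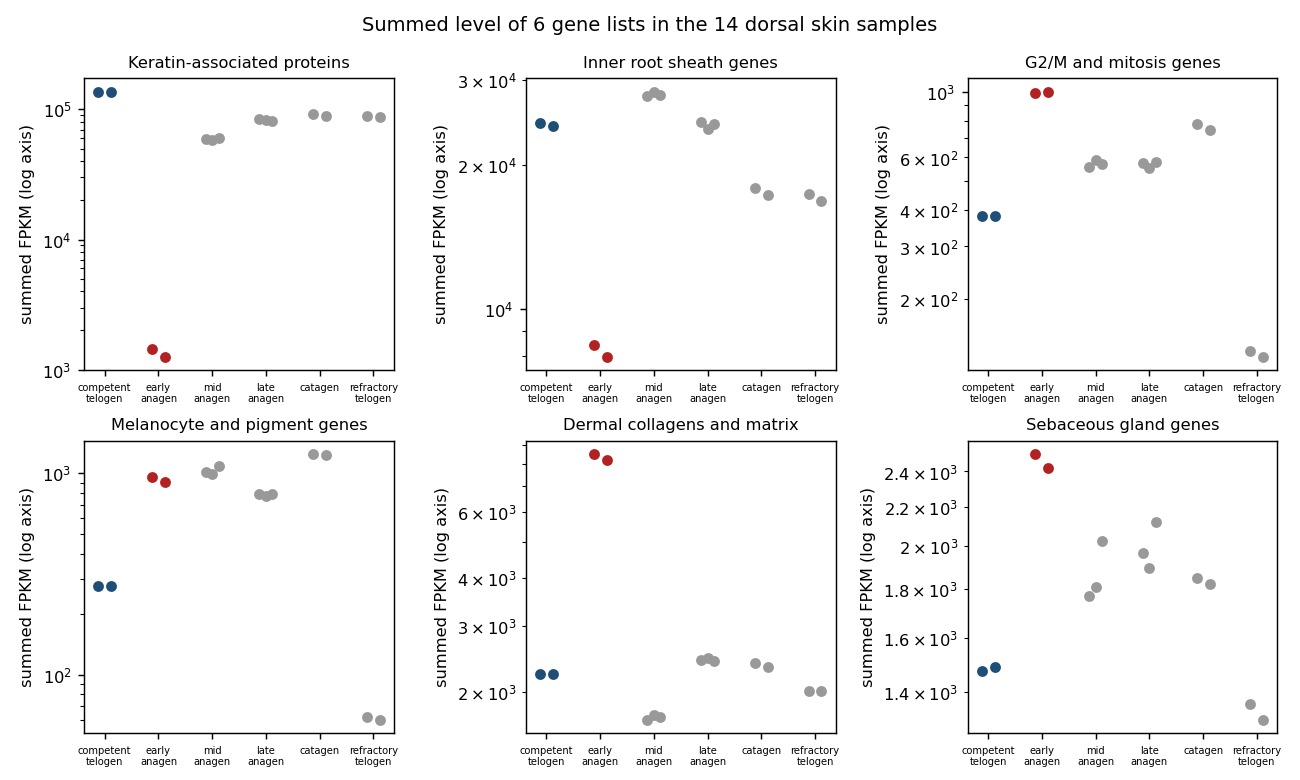
Summed FPKM (log axis) of 6 gene lists in each of the 14 dorsal libraries, by labelled stage; each point is 1 library, with competent telogen in blue, early anagen in red and other stages in grey. The KAP sum of the 2 competent telogen libraries is the highest of all stages and that of the 2 early anagen libraries the lowest, while the sums of collagens, sebaceous gland and G2/M genes are highest in early anagen.

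At least 0.5 FPKM in 2 or more of the 4 libraries was reached by 16674 genes. Of these, 9263 passed the threshold of limma (Benjamini-Hochberg adjusted p under 0.05), with 7516 (45.1%) higher and 1747 (10.5%) lower in early anagen. The 2 DEA values lay outside the range of the 2 DCT values for 9252 of the 9263, and for 13617 (81.7%) of all genes tested, so a lack of overlap by itself sets few genes apart. The median log2 fold change over all genes tested was 0.35, and FPKM is a share of each library. Each library was then rescaled by its median of ratios to a reference of all samples. After this rescaling the median was 0.01 and the split turned to 3470 higher (20.8%) and 3664 lower (22.0%). Changes are therefore read relative to these medians. A gene is said to have risen or fallen here only where it passed in the same direction on both scales, as deposited and rescaled. This held for 3470 higher (20.8%) and 1747 lower (10.5%) of the genes tested. Counts of risen and fallen members of each list below are read beside these shares. A log2 fold change is a difference of log2(FPKM + 1) as deposited, which understates the change of low genes, and folds are ratios of mean FPKM. Changes of at least 2-fold on both scales numbered 669 upward and 714 downward. With the refractory telogen libraries in place of DCT1 and DCT2, 9582 of the 16674 genes passed, 7604 higher and 1978 lower as deposited. After rescaling, 4076 were higher and 3889 lower on that baseline. Its medians over all genes tested were 0.36 and, after rescaling, 0.03. Counts of list members on that baseline are read beside these. For all genes named below as risen or fallen, the DCT and DEA values did not overlap.

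**Figure D2:**
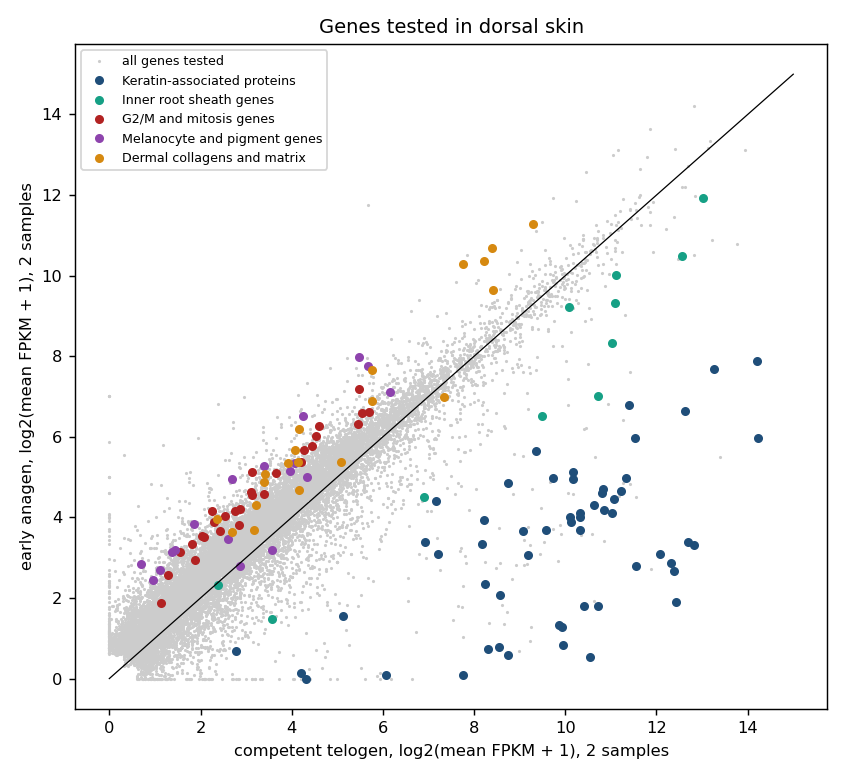
Mean level of each of the 16674 genes tested, as log2(mean FPKM + 1), in competent telogen (x axis) and early anagen (y axis), with 2 libraries a stage, the line of equal levels and 5 gene lists in colour. KAP genes (dark blue) lie far below the line and inner root sheath genes (green) mostly below it, while nearly all mitosis, pigment and collagen genes lie above it.

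The genes of the hair shaft fell together, KAP genes most of all. KAPs are small cysteine- or glycine- and tyrosine-rich proteins that crosslink keratin filaments in the shaft. Of 57 KAP genes listed, 56 were tested and all 56 fell, beside 10.5% of all genes tested as deposited and 22.0% after rescaling. In bulk skin, fewer cells of a type and less RNA per cell cannot be told apart, here and in every result below. The median log2 fold change of the 56 was -6.28, or -6.70 after rescaling. With the refractory telogen libraries in place of DCT1 and DCT2, all 56 were lower too, with a median of -5.33. The same DEA libraries were used, whose KAP sums were the lowest of all dorsal stages, so this is no independent check. KAP genes also made up 54 of the 159 genes that were at least 8-fold lower. Krtap19-9b had 5621 and 5460 FPKM in the DCT libraries and 3.65 and 1.88 FPKM in the DEA libraries (log2 fold change -10.56, SE 0.20, adjusted p = 1.5e-26). Krtap15 had 7292 and 7220 FPKM in the DCT libraries and 15.1 and 2.9 FPKM in the DEA libraries, and Krtap6-5 had 6579 and 6600 FPKM in the DCT libraries and 10.7 and 8.12 FPKM in the DEA libraries. DCT1 and DCT2 were close to each other for these genes, and DEA1 was above DEA2 in each.

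KAP genes lie in clusters, and the drop was deepest for the cluster on chromosome 16, which holds the glycine- and tyrosine-rich KAPs. On GRCm38 the 24 tested members there, between 88610705 and 89571183, had a median log2 fold change of -8.74, and their summed level was 99214 and 98471 FPKM in the DCT libraries and 824 and 685 FPKM in the DEA libraries. The 23 members on chromosome 11, between 99550130 and 99993994 and next to the type I keratins, had a median of -6.21 and sums of 34115 and 33372 FPKM against 532 and 476 FPKM. The 5 members on chromosome 7 had a median of -4.86, the 2 on chromosome 10 one of -5.42 and the 2 on chromosome 1 one of -4.20. Many members of a cluster are near-identical copies that share reads, so values of single KAP genes are uncertain and the sums are firmer.

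The stretch of 150 bases before the start of KAP genes is shown because the members of the chromosome 16 cluster moved together. RefSeq promoter windows (GRCm38.p6) were matched for 50 of the 56 tested KAP genes. The letters TATAAA, searched on both strands of windows from 250 bases before to 50 after the start, were present in 41 of 50 windows (82.0%), against 4473 of 32851 (13.6%) of all windows. This motif was added after the data had been seen. CCAAT was in 36.0% of the KAP windows and 37.4% of all windows. Of the genes with the deepest drop, Krtap19-9b (chr16:88932265-88932414 on the minus strand) and Krtap19-5 (chr16:88896450-88896599 on the minus strand) hold TATAAA, in capitals. Krtap14 (chr16:88826146-88826295 on the minus strand) and Krtap15 (chr16:88828859-88829008 on the plus strand) do not hold these letters in the stretch shown. A match is a description of the letters and not a shown binding site.
Krtap19-9b: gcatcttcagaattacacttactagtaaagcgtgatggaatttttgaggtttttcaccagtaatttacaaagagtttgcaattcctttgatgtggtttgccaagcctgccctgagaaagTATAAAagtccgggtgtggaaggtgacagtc
Krtap19-5: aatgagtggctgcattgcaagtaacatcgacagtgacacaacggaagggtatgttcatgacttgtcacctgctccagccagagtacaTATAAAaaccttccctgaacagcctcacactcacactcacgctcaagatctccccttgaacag
Krtap14: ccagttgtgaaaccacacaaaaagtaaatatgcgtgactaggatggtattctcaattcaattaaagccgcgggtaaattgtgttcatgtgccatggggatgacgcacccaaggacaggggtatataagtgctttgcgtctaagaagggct
Krtap15: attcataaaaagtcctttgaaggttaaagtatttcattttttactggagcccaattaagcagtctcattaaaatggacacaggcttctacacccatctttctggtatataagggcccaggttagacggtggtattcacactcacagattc

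Hair keratins followed the KAPs. All 9 listed type I and all 5 tested type II hair keratins fell, beside 10.5% of all genes tested. Their median log2 fold changes were -3.26 and -5.16. Their summed level was 6887 and 6818 FPKM in the DCT libraries and 1173 and 1047 FPKM in the DEA libraries for type I. For type II it was 3419 and 3364 FPKM in the DCT libraries and 199 and 178 FPKM in the DEA libraries. On the refractory telogen baseline, type I had 1 higher and 8 lower as deposited, and 0 and 8 after rescaling. All 5 type II genes were lower on both scales there. Krt85 and Krt87 were not analysed here. Krt34, a keratin of the cortex, fell 87.05-fold, from 965 and 947 to 10.8 and 11.1 FPKM (log2 fold change -6.32, SE 0.12, adjusted p = 3.5e-26). Krt86 fell 46.1-fold, from 1079 and 1063 to 25.6 and 20.9 FPKM. Krt35, a keratin of the matrix and lower cortex, had 902 and 889 FPKM in the DCT libraries and 659 and 617 FPKM in the DEA libraries (log2 fold change -0.49, SE 0.21, adjusted p = 0.049), a call that was lost with any 1 of the 4 libraries left out. Krt82, a keratin of the hair cuticle, fell from 86.1 and 84.7 to 18.1 and 20.2 FPKM. In type I keratins, 6 of 7 matched windows held TTTGAA and 5 of 7 held TATAAA.

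The inner root sheath, the layer that shapes the emerging shaft, fell less steeply. Of 11 genes, 10 fell, beside 10.5% of all genes tested, with a median log2 fold change of -2.07. On the refractory telogen baseline, 8 were lower as deposited and 10 after rescaling, with medians of -1.3 and -1.65. Krt71, a keratin of all sheath layers, had 8292 and 8240 FPKM in the DCT libraries and 4102 and 3706 FPKM in the DEA libraries, a 2.12-fold lower mean (log2 fold change -1.08, SE 0.14, adjusted p = 1.7e-07). Tchh, which encodes the trichohyalin of sheath and medulla granules, fell 6.42-fold, from 2112 and 2035 to 302 and 344 FPKM, and Krt72 fell 12.98-fold, from 1700 and 1656 to 137 and 122 FPKM. The exception, Krt74, had 3.53 and 4.87 FPKM in the DCT libraries and 3.82 and 4.23 FPKM in the DEA libraries. In the companion layer, Krt75 fell 2.54-fold, and the wound-responsive Krt16 fell from 60.2 and 59.9 to 11.02 and 8.99 FPKM.

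The transcription factors of the shaft moved in both directions. Of 14 matrix and shaft factors, 5 fell and 1 rose, beside 10.5% and 20.8% of all genes tested. Foxn1, the nude gene, needed for shaft differentiation, had 33.7 and 34.6 FPKM in the DCT libraries and 11.7 and 9.17 FPKM in the DEA libraries (log2 fold change -1.63, SE 0.14, adjusted p = 1.7e-10). Hoxc13, an activator of hair keratin genes, fell 1.82-fold, from 67.1 and 71.1 to 37.04 and 38.7 FPKM. Prdm1 fell from 10.4 and 11.2 to 5.31 and 6.86 FPKM. Msx1 alone rose, from 26.7 and 24.7 to 78.2 and 71.1 FPKM. Lef1, the WNT effector of the hair matrix, had 33.3 and 30.8 FPKM in the DCT libraries and 38.2 and 42.8 FPKM in the DEA libraries and did not pass (adjusted p = 0.23). Cux1, Dlx2 and Vdr passed as higher as deposited, with log2 fold changes of 0.39, 0.40 and 0.29, but their sign turned after rescaling. With 1 library left out, 1 to 3 factors were higher as deposited in place of 4, the fewest without DCT2 or DEA1.

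Deep drops outside the KAP family and the lists are given for 3 genes, chosen after their values were seen. Sprr2h, a small proline-rich protein of the cornified envelope from a family of close copies, had 393 and 392 FPKM in the DCT libraries and 3.27 and 1.88 FPKM in the DEA libraries, a log2 fold change of -6.81. Tchhl1, a relative of trichohyalin, had a log2 fold change of -4.57. Gprc5d, a receptor of hard keratin tissue, had one of -4.21.

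The cell cycle genes rose, in contrast to the shaft. All 28 G2/M and mitosis genes were higher in early anagen beside 45.1% of all genes tested as deposited, and 27 of them remained so after rescaling beside 20.8%. The exception on the second scale, named after its value was seen, was Cenpa. The median log2 fold change was 1.42, or 1.01 on the second scale. Cdk1, the kinase that triggers mitosis, had 44.1 and 43.4 FPKM in the DCT libraries and 147 and 142 FPKM in the DEA libraries (log2 fold change 1.70, SE 0.22, adjusted p = 2.7e-07). Ccnb1, its cyclin partner, rose 3.27-fold, from 22.9 and 23.7 to 80.3 and 72.1 FPKM. Aurkb, the kinase of the chromosomal passenger complex, had the largest change, from 7.71 and 7.85 to 33.2 and 35.3 FPKM (log2 fold change 2.00, SE 0.19, adjusted p = 1.2e-09). Mki67, the proliferation marker, had 6.27 and 6.12 FPKM in the DCT libraries and 12.9 and 13.4 FPKM in the DEA libraries, and Top2a, a topoisomerase of dividing cells, rose 2.87-fold. No value of the DCT libraries reached those of the DEA libraries for any of these genes. A lack of overlap, in either direction, held for 81.7% of all genes tested.

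DNA replication genes moved the same way. All 25 G1/S genes passed as higher and 22 did so after rescaling, with medians of 1.27 and 0.88. Mcm4, a subunit of the replicative helicase, rose 4.06-fold, from 5.43 and 5.63 to 22.2 and 22.8 FPKM (log2 fold change 1.85, SE 0.13, adjusted p = 3.9e-12). Uhrf1, which keeps DNA methylation through replication, rose from 8.49 and 9.39 to 34.3 and 32.3 FPKM, and Tk1, a thymidine kinase, from 32.7 and 31.5 to 104 and 103 FPKM. With the refractory telogen libraries in place of DCT1 and DCT2, all 28 mitosis and all 25 G1/S genes were higher too, with larger medians of 2.64 and 2.08. The same DEA libraries were used, whose sums of both lists were the highest of all dorsal stages, so this is no independent check.

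Promoters of mitosis genes are known to carry CCAAT boxes and cell cycle homology elements near their start, and 4 of them are shown since the list rose as a whole. Of 24 windows matched to 23 of the 28 genes, 87.5% held CCAAT and 79.2% TTTGAA on either strand, against 37.4% and 17.9% of all windows. G1/S windows held CCAAT in 71.4% and TTTGAA in 9.52%. Among KAP windows TTTGAA was in 28.0%, and CTTTGAA, which contains TTTGAA, was in 18% of KAP windows, 8.33% of mitosis windows and 5.14% of all windows. Capitals below mark CCAAT or TTTGAA, or their reverse complements ATTGG and TTCAAA. The windows belong to Cdk1 (chr10:69352913-69353062 on the minus strand), Ccnb1 (chr13:100786487-100786636 on the minus strand), Bub1, a spindle checkpoint kinase (chr2:127831860-127832009 on the minus strand), and Kif11, a spindle motor (chr19:37376232-37376381 on the plus strand).
Cdk1: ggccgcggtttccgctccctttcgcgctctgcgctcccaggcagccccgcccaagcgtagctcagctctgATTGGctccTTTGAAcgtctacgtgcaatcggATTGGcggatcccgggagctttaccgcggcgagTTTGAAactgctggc
Ccnb1: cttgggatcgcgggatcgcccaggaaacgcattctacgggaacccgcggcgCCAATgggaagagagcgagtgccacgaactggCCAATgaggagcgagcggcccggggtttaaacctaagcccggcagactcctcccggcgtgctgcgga
Bub1: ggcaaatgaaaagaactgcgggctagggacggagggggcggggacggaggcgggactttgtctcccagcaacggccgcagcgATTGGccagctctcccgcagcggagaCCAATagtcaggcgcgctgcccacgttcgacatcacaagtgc
Kif11: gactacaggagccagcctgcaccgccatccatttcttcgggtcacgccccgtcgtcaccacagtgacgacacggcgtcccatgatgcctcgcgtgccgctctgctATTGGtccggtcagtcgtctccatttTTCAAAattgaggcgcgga

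Hedgehog transcripts were higher as deposited, from the ligand to the direct targets of the pathway. All 13 genes of the pathway passed as higher, beside 45.1% of all genes tested, and 7 did so after rescaling, beside 20.8%, with medians of 0.79 and 0.41. Shh, the ligand made by the hair germ and matrix (chromosome 5, 28456815 to 28467256 on GRCm38), had 2.21 and 1.97 FPKM in the DCT libraries and 9.99 and 11.7 FPKM in the DEA libraries (log2 fold change 1.93, SE 0.24, adjusted p = 2.1e-07). Among targets that report pathway activity, Gli1 rose 3.43-fold, from 1.58 and 1.61 to 6.14 and 4.79 FPKM, and Hhip, a decoy receptor, rose 5.22-fold, from 1.62 and 1.33 to 8.55 and 6.85 FPKM. The receptor Ptch1 had 4.24 and 4.7 FPKM in the DCT libraries and 8.95 and 7.95 FPKM in the DEA libraries (log2 fold change 0.79, SE 0.14, adjusted p = 2.4e-05). Another 6, namely the transducer Smo, the effector Gli2, the inhibitor Sufu, the coreceptors Gas1 and Cdon and the ligand exporter Disp1, passed as deposited only.

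The DEA and DCT values of Shh and Hhip did not overlap, which also held for 81.7% of all genes tested. Across other dorsal stages, Shh was 3.34 to 4.05 FPKM in mid anagen and 1.08 to 1.19 FPKM in refractory telogen. With refractory telogen as the baseline, the pathway had 11 higher and 1 lower as deposited, and 8 and 1 after rescaling.

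**Figure D3:**
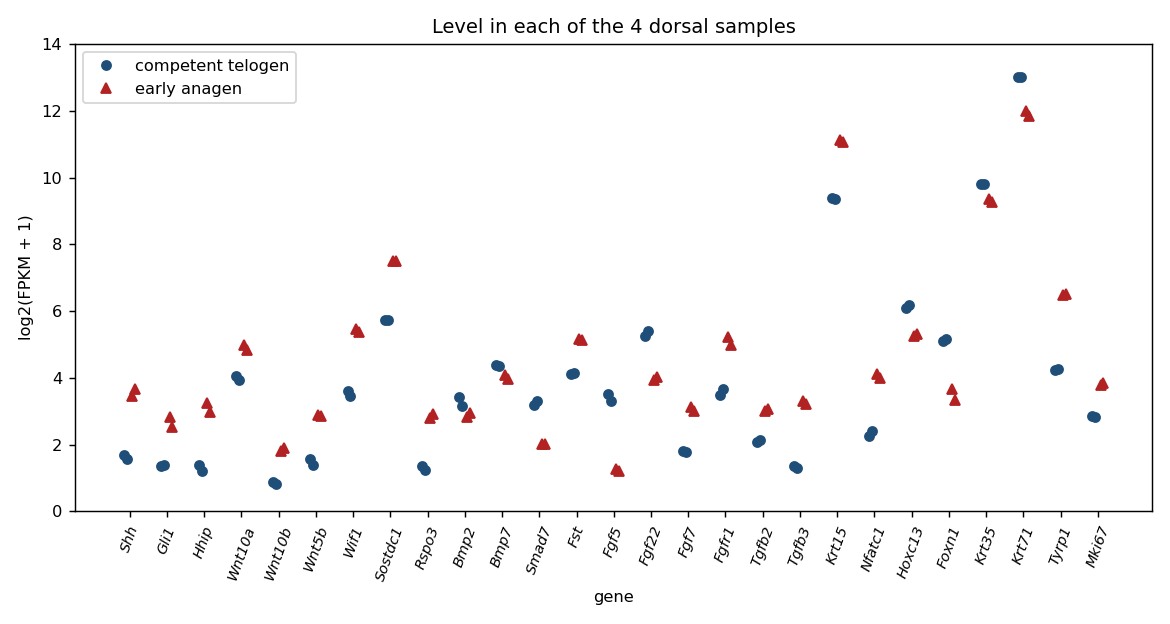
Level of 27 signalling, follicle and cell cycle genes as log2(FPKM + 1) in each of the 4 dorsal libraries, with competent telogen as blue circles and early anagen as red triangles. Shh, Hhip, Wif1, Sostdc1, Rspo3, Tgfb3, Nfatc1 and Tyrp1 sit higher in early anagen, while Fgf5, Fgf22, Smad7, Foxn1 and Hoxc13 sit lower.

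WNT ligands act with R-spondins, which amplify the signal, against secreted antagonists. Of 19 WNT ligands, 13 passed the filter, of which 4 rose and 1 fell, beside 20.8% and 10.5% of all genes tested. Wnt5b had 1.96 and 1.62 FPKM in the DCT libraries and 6.45 and 6.31 FPKM in the DEA libraries (log2 fold change 1.41, SE 0.18, adjusted p = 2e-07). Wnt10b, a ligand that drives follicle growth, was low but higher in both DEA libraries, from 0.85 and 0.76 to 2.53 and 2.71 FPKM (log2 fold change 1.00, SE 0.26, adjusted p = 0.0019), and Wnt10a rose from 15.5 and 14.4 to 30.5 and 27.8 FPKM. Wnt16 rose from 0.75 and 0.72 to 2.07 and 2.35 FPKM. Wnt3 fell slightly, from 21.4 and 22.04 to 17.9 and 16.5 FPKM, a call that was lost without DCT1, DCT2 or DEA2. Wnt7b had 5.7 and 5.58 FPKM in the DCT libraries and 10.6 and 10.02 FPKM in the DEA libraries and did not pass after rescaling.

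R-spondins, made by the dermal papilla and ligands of the Lgr receptors, rose for Rspo1, Rspo2 and Rspo3, whereas Rspo4 did not pass as deposited. Rspo1 had 0.79 and 1.29 FPKM in the DCT libraries and 6.59 and 4.87 FPKM in the DEA libraries. Rspo2 had 0.21 and 0.05 FPKM in the DCT libraries and 2.53 and 2.46 FPKM in the DEA libraries, so that it was near 0 in both DCT libraries. Rspo3 had 1.57 and 1.38 FPKM in the DCT libraries and 5.91 and 6.6 FPKM in the DEA libraries (log2 fold change 1.55, SE 0.20, adjusted p = 2.6e-07). Of 19 R-spondins and receptors, 6 rose and 1 fell, beside 20.8% and 10.5% of all genes tested. The one that fell was Fzd5 (from 5.05 and 5.64 to 2.95 and 2.5 FPKM). Lgr6 rose 3.74-fold, from 1.32 and 1.38 to 5.28 and 4.81 FPKM, and the stem cell receptor Lgr5 had 7.06 and 7.44 FPKM in the DCT libraries and 9.66 and 11.02 FPKM in the DEA libraries and passed as deposited only. The refractory telogen baseline gave this list 8 higher and 4 lower as deposited, and 5 and 8 after rescaling.

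Of 14 tested WNT antagonists, 12 were higher as deposited and 9 rose, with medians of 1.08 and, after rescaling, 0.66. Wif1, which binds WNT proteins, rose 3.92-fold, from 11.1 and 10.1 to 42.8 and 40.05 FPKM (log2 fold change 1.87, SE 0.15, adjusted p = 3.2e-11). Sostdc1, an antagonist of both WNT and BMP, had 52.5 and 52.3 FPKM in the DCT libraries and 179 and 181 FPKM in the DEA libraries (log2 fold change 1.76, SE 0.13, adjusted p = 3.1e-12). Notum, an enzyme that strips WNT of its lipid, rose from 3.72 and 3.82 to 12.8 and 14.2 FPKM, and Dkk3 rose from 6.81 and 6.64 to 20.1 and 18.8 FPKM. Of 12 genes known as targets, 6 rose. They were led by Ccnd1, a cyclin of G1 (from 17.9 and 18.2 to 55.7 and 54.6 FPKM), Myc (from 14.7 and 15.8 to 41.3 and 39.1 FPKM) and Znrf3 (from 13.8 and 13.6 to 29.4 and 31.6 FPKM). Axin2, the usual readout, had 3.2 and 3.46 FPKM in the DCT libraries and 4.87 and 4.44 FPKM in the DEA libraries (log2 fold change 0.38, SE 0.14, adjusted p = 0.021) and did not pass after rescaling.

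BMP signalling holds follicle stem cells at rest, and its inhibitory feedback genes are themselves BMP targets. Of 8 tested BMP and GDF ligands, 3 fell, beside 10.5% of all genes tested. That count shrank without DCT1 and was 0 on TPM, the FPKM of each library rescaled to a common total. Bmp2, a BMP ligand known to delay anagen, had 9.75 and 7.86 FPKM in the DCT libraries and 6.12 and 6.63 FPKM in the DEA libraries (log2 fold change -0.41, SE 0.12, adjusted p = 0.0069), Bmp7 fell from 19.9 and 19.3 to 16.04 and 14.7 FPKM, and Gdf10 fell from 6.13 and 5.88 to 4.46 and 3.19 FPKM. Bmp4 had 24.5 and 25.1 FPKM in the DCT libraries and 35.8 and 33.1 FPKM in the DEA libraries, which passed as deposited only, and Bmp6 had 0.79 and 0.66 FPKM in the DCT libraries and 0.84 and 0.78 FPKM in the DEA libraries and did not pass (adjusted p = 0.72). Bmp1, a protease that processes procollagen and chordin and not a ligand, was the only list member that rose, from 10.6 and 11.1 to 19.5 and 17.6 FPKM.

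Among the BMP antagonists, 4 of 11 rose, beside 20.8% of all genes tested. They were Fst (from 16.2 and 16.6 to 34.8 and 34.1 FPKM), Fstl1 (from 75.6 and 72.1 to 176 and 168 FPKM), Grem1 (from 1.46 and 1.33 to 4.43 and 3.44 FPKM) and Twsg1 (from 12.8 and 13.2 to 25.7 and 24.8 FPKM). The response genes split. Of 9 tested, 1 rose and 3 fell, beside 20.8% and 10.5% of all genes tested. Values of the 1 that rose are not reported here. The feedback inhibitors Smad7, Smad6 and Bambi fell, and Smad7 had 8.18 and 8.93 FPKM in the DCT libraries and 3.01 and 3.04 FPKM in the DEA libraries (log2 fold change -1.25, SE 0.15, adjusted p = 5.8e-08). Bambi fell from 44.1 and 45.4 to 22.8 and 23.2 FPKM and Smad6 from 5.02 and 4.72 to 2.31 and 1.88 FPKM. Id2 and Id3, targets of BMP in many cells, passed as higher as deposited only, with 157 and 146 FPKM in the DCT libraries and 238 and 244 FPKM in the DEA libraries for Id3.

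FGF genes moved in both directions. Fgf5, which ends anagen, fell 7.11-fold, from 10.4 and 8.85 to 1.39 and 1.32 FPKM (log2 fold change -2.17, SE 0.24, adjusted p = 2.8e-08), and Fgf22 fell 2.64-fold, from 36.95 and 41.3 to 14.2 and 15.4 FPKM. Fgf7, a growth factor of the dermal papilla, rose 3.00-fold, from 2.51 and 2.46 to 7.78 and 7.11 FPKM (log2 fold change 1.28, SE 0.23, adjusted p = 2.9e-05). The receptors Fgfr1 and Fgfr2 rose from 10.2 and 11.8 to 35.97 and 30.9 FPKM and from 21.4 and 25.2 to 59.2 and 59.3 FPKM. Of 15 tested FGF ligands and receptors, 4 rose and 3 fell, beside 20.8% and 10.5% of all genes tested. These counts alone do not set the list apart. Fgf18, which holds telogen, was low in all 4 libraries (0.88 and 0.61 FPKM in the DCT libraries and 1.04 and 0.53 FPKM in the DEA libraries) and did not pass (adjusted p = 0.95).

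Of 14 TGF-beta and activin genes, 5 rose and 4 fell, beside 20.8% and 10.5% of all genes tested. The 4 lower calls became 1 without DEA2, 2 without DCT1 or DCT2, and 1 on TPM, and the 8 higher as deposited became 5 without DEA2. Tgfb2, a papilla signal that activates the hair germ, had 3.19 and 3.43 FPKM in the DCT libraries and 7.08 and 7.33 FPKM in the DEA libraries (log2 fold change 0.93, SE 0.20, adjusted p = 0.00031). Tgfb3 rose 5.65-fold, from 1.59 and 1.44 to 8.84 and 8.28 FPKM. Their receptor Tgfbr2 rose from 6.57 and 6.74 to 12.98 and 12.96 FPKM, and the extracellular target Tgfbi rose from 26.3 and 29.7 to 72.5 and 68.2 FPKM. The activin subunits Inhba and Inhbb fell from 11.6 and 11.2 to 8.52 and 7.33 FPKM and from 5.65 and 4.47 to 3.16 and 3.24 FPKM.

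Markers of follicle stem cells and of the germ depended on the baseline. Of 17 genes, 9 rose and 2 fell from competent telogen, with medians of 0.82 and, after rescaling, 0.40. Against refractory telogen there were 8 higher and 6 lower as deposited, and 6 and 8 after rescaling, with medians of 0.19 and -0.23. The medians of all genes tested on that baseline were 0.36 and 0.03. Krt15, the bulge keratin, had 664 and 649 FPKM in the DCT libraries and 2242 and 2157 FPKM in the DEA libraries, a 3.35-fold higher mean (log2 fold change 1.74, SE 0.18, adjusted p = 3.1e-09). Nfatc1, which keeps bulge cells quiescent, rose 3.87-fold, from 3.8 and 4.31 to 16.5 and 14.9 FPKM, and Cd34, a bulge surface marker, rose from 37.6 and 35.3 to 72.7 and 72.2 FPKM. Lgr6, given above, and Gli1 are also on this list. Foxc1 and Runx1 fell from 11.8 and 12.2 to 6.81 and 7.81 FPKM and from 11.1 and 10.9 to 7.18 and 7.42 FPKM.

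In the dermal papilla list, 9 of 16 tested genes rose and none fell on both scales. Sox18 rose 5.27-fold, from 3.64 and 4.17 to 21.6 and 19.6 FPKM (log2 fold change 2.14, SE 0.20, adjusted p = 8.1e-10), Vcan, the versican of the inductive papilla, rose 5.67-fold, from 2.35 and 1.62 to 11.9 and 10.6 FPKM, and Alpl, the alkaline phosphatase used to stain it, rose 5.6-fold, from 1.12 and 1.16 to 7.02 and 5.74 FPKM. Corin, a papilla protease, had 1.23 and 1.2 FPKM in the DCT libraries and 0.97 and 0.99 FPKM in the DEA libraries and did not pass as deposited. Sox18 is also made by endothelium, whose list is given below.

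Most pigment genes rose. Of 18, 14 rose and 1, Mitf, fell (from 10.4 and 11.2 to 8.65 and 7.64 FPKM), a call that was lost with any 1 of the 4 libraries left out. The median log2 fold change was 1.67, or 1.33 after rescaling, and the sum was 276 and 277 FPKM in the DCT libraries and 962 and 909.6 FPKM in the DEA libraries. Pmel, the fibril protein of the melanosome, had 42.6 and 43.8 FPKM in the DCT libraries and 269 and 233 FPKM in the DEA libraries (log2 fold change 2.51, SE 0.26, adjusted p = 5.5e-09). Tyrp1, an enzyme of melanin synthesis, rose 4.98-fold, from 17.8 and 18.2 to 88.7 and 90.99 FPKM. Dct, which acts in the same path, rose 4.33-fold, from 49.4 and 50.2 to 218 and 213 FPKM. Kitl, the follicle signal for melanocytes, rose from 6.12 and 4.8 to 28.5 and 31.1 FPKM, while its receptor Kit had 6.24 and 6.31 FPKM in the DCT libraries and 6.25 and 5.66 FPKM in the DEA libraries. In refractory telogen the sum was 59.97 to 62.02 FPKM, lower than in all other dorsal libraries. Against that stage, 17 pigment genes were higher and 1 lower.

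Sebaceous gland genes held several of the largest rises in the table. Of 15, 13 were higher as deposited and 9 rose, with a summed level of 1475 and 1490 FPKM in the DCT libraries and 2502 and 2420 FPKM in the DEA libraries. Scd3, a stearoyl desaturase of the sebocyte, rose 21.8-fold, from 2.71 and 2.97 to 63.7 and 60.4 FPKM (log2 fold change 4.04, SE 0.23, adjusted p = 1.4e-14). Far2, which makes fatty alcohols for wax, rose 14.5-fold, from 5.76 and 5.43 to 84.5 and 77.4 FPKM, and the wax synthases Awat1 and Awat2 rose from 5.47 and 5.65 to 77.7 and 68.2 FPKM and from 2.23 and 2.57 to 37.8 and 30.6 FPKM. Mgst1 and Elovl3, abundant in sebaceous cells, did not pass as deposited, with 844 and 852 FPKM in the DCT libraries and 914 and 904 FPKM in the DEA libraries for Mgst1. After rescaling, 2 genes of the list were lower, and the sign of Mgst1 turned. Krt79, a keratin of the sebaceous duct and infundibulum, rose 5.81-fold, from 97.4 and 95.7 to 573 and 549 FPKM.

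Others of the 12 largest rises, picked by a set rule, were protease inhibitors and lipid or steroid enzymes. Serpinb6e had 1.3 and 1.25 FPKM in the DCT libraries and 53.7 and 55.5 FPKM in the DEA libraries (log2 fold change 4.61, SE 0.25, adjusted p = 4.4e-15), Serpina3j had 4.04 and 4.34 FPKM in the DCT libraries and 114 and 108 FPKM in the DEA libraries, Serpina3b had 5.96 and 7.49 FPKM in the DCT libraries and 130.3 and 121 FPKM in the DEA libraries, and Serpinb12 had 0.54 and 0.57 FPKM in the DCT libraries and 18.1 and 19.01 FPKM in the DEA libraries. Ces4a, a carboxylesterase, rose from 0.78 and 0.99 to 29.2 and 25.3 FPKM, and Hsd3b6, a steroid dehydrogenase, from 1.18 and 1.18 to 26.8 and 26.6 FPKM. The Serpina3 and Serpinb6 genes are families of close copies that share reads, so single members are uncertain. mt-Nd4l was listed at 0 in both DCT libraries and at 52.6 and 63.02 FPKM in the DEA libraries. Hist1h2aj, a member of a histone family of near-identical genes, was listed at 0 in both DCT libraries and at 12.3 and 19.5 FPKM in the DEA libraries, and did not pass after rescaling.

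The epidermis changed in opposite directions in its terminal genes. Among 31 records of 25 listed symbols (Flg is listed under several identifiers, which share the symbol), 8 rose and 9 fell, beside 20.8% and 10.5% of all genes tested. Krt1, a keratin of the spinous layer, rose 5.75-fold, with 22.5 and 22.8 FPKM in the DCT libraries and 133 and 128 FPKM in the DEA libraries (log2 fold change 2.47, SE 0.25, adjusted p = 5.2e-09). Its partner Krt10 and the cornified envelope gene Lor, the loricrin, both chosen after their values were seen, rose from 149 and 141 to 478 and 538 FPKM and from 199.8 and 189 to 952 and 894 FPKM. Sprr1b fell from 204 and 197 to 2.16 and 2.82 FPKM (log2 fold change -5.86, SE 0.40, adjusted p = 8.1e-13) and Lce3c from 93.9 and 92.1 to 4.43 and 4.95 FPKM. With refractory telogen in place of competent telogen, the records were 4 higher and 10 lower as deposited, and 3 and 13 after rescaling.

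The dermal matrix rose strongly. Of 20 collagens and matrix genes, 19 were higher as deposited and 16 rose, with medians of 1.47 and, after rescaling, 1.05. The sum was 2239 and 2234 FPKM in the DCT libraries and 8494 and 8192 FPKM in the DEA libraries, the highest of all dorsal stages, since the others lay between 1692 and 2456 FPKM. Col1a2, a chain of type I collagen, rose 5.87-fold, from 213 and 216 to 1265 and 1251 FPKM (log2 fold change 2.55, SE 0.15, adjusted p = 2.1e-14), and Col1a1 rose 4.89-fold, from 337 and 333 to 1646 and 1630 FPKM. Sparc, a collagen-binding protein, rose 4.02-fold, from 626 and 619.9 to 2617 and 2388 FPKM. Against refractory telogen all 20 were higher as deposited, and 19 after rescaling. Dpt, the dermatopontin, was the member that was not higher than in competent telogen. It had 160.0 and 162 FPKM in the DCT libraries and 131 and 120.4 FPKM in the DEA libraries.

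Genes of vessels, nerves and smooth muscle rose in unequal shares. Of 15 vessel genes, 11 were higher as deposited and 5 rose, beside 45.1% and 20.8% of all genes tested, with a rescaled median of 0.25, and the sum was 96.7 and 97.3 FPKM in the DCT libraries and 171 and 155 FPKM in the DEA libraries. Cldn5, a tight junction protein of endothelium, rose from 9.29 and 10.00 to 30.00 and 27.6 FPKM, while Cdh5 and Vwf, which also define endothelium, did not pass as deposited. Of 8 tested Schwann cell and nerve genes, with a sum of 167 and 166 FPKM in the DCT libraries and 386 and 349 FPKM in the DEA libraries, 6 rose, among them Pmp22 (from 87.3 and 86.5 to 204 and 186 FPKM); the neurofilament genes Nefl and Nefm were at or near 0 in all 4 libraries. Of 11 smooth muscle genes, with a sum of 182 and 177 FPKM in the DCT libraries and 366 and 331 FPKM in the DEA libraries, 7 rose, led by Acta2 (from 54.5 and 54.4 to 174 and 149.5 FPKM).

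Skeletal muscle of the layer under the skin was abundant in all 4 libraries, and its sum was 9379 and 9331 FPKM in the DCT libraries and 10938 and 10752 FPKM in the DEA libraries. Of 29 genes, 4 rose and 2 fell, beside 20.8% and 10.5% of all genes tested. Myh1, a fast myosin, rose from 20.8 and 20.6 to 88.97 and 92.1 FPKM, Tnnc1 rose from 0.67 and 1.26 to 9.68 and 7.36 FPKM, and Tcap fell from 256 and 257 to 124 and 108 FPKM. With 1 library left out, 4 to 6 were higher as deposited in place of 9, the fewest without DCT2, and the 2 lower became 1 in each case. In late anagen the sum was 871 to 902 FPKM.

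Adipocyte genes moved in both directions. Of 18, 2 rose and 4 fell, beside 20.8% and 10.5% of all genes tested, so these counts alone do not set the list apart. The sum was 4857 and 4825 FPKM in the DCT libraries and 3096 and 3050 FPKM in the DEA libraries. Fabp4, the fatty acid carrier of fat cells, had 1874 and 1873 FPKM in the DCT libraries and 781 and 935 FPKM in the DEA libraries (log2 fold change -1.13, SE 0.14, adjusted p = 1.8e-07), Lipe, a lipase, fell from 41.8 and 42.7 to 19.5 and 18.5 FPKM, and Adipoq fell from 182 and 183 to 124 and 117 FPKM. Cidea, a lipid droplet protein also found in sebocytes, rose from 23.3 and 25.5 to 108 and 86.7 FPKM. This list depended on the baseline. Against refractory telogen, 15 were higher and 0 lower as deposited, with a median of 1.76 in place of -0.06. After rescaling there were 14 higher and 2 lower, with a median of 1.41 in place of -0.46.

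Immune genes moved in both directions. Of 19 macrophage and antigen-presenting cell genes, 2 rose and 4 fell, beside 20.8% and 10.5% of all genes tested. These counts alone do not set the list apart. The sum of the list was 1129 and 1121 FPKM in the DCT libraries and 1156 and 1035 FPKM in the DEA libraries. This list too depended on the baseline, since it had 11 higher and 0 lower as deposited, and 9 and 0 after rescaling against refractory telogen, and its lower calls became 2 without DEA2. The complement genes C1qa, C1qb and C1qc fell, C1qa from 76.2 and 70.7 to 40.3 and 39.1 FPKM, whereas Cd207, the langerin of Langerhans cells, rose from 2.49 and 1.9 to 8.57 and 9.15 FPKM. Of the 12 T cell genes, 7 passed the filter and 5 rose, with a sum of 11.7 and 10.2 FPKM in the DCT libraries and 32.4 and 31.7 FPKM in the DEA libraries. Cd3g had 4.01 and 3.51 FPKM in the DCT libraries and 13.3 and 12.8 FPKM in the DEA libraries, while Cd4, Cd8a, Foxp3 and Il2ra stayed under 0.5 FPKM in all 4 libraries. With refractory telogen as baseline, the T cell list had 4 higher and 0 lower as deposited, and 2 and 0 after rescaling. Over all 16674 genes tested on that baseline the counts were 7604 and 1978, and 4076 and 3889 after rescaling. The 14 neutrophil and mast cell genes, 9 of them tested, had a sum of 332 and 335 FPKM in the DCT libraries and 160.1 and 151 FPKM in the DEA libraries, and 3 fell. The refractory telogen baseline gave them 4 higher and 1 lower as deposited, and 4 and 2 after rescaling. S100a8 fell from 222 and 221 to 48.5 and 47.4 FPKM and S100a9 from 18.7 and 12.6 to 3.66 and 2.88 FPKM. Ly6g, a defining neutrophil marker, was at 0 in all 4 libraries.

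Of 22 tested chemokines, 3 rose and 5 fell, beside 20.8% and 10.5% of all genes tested. These counts alone do not set the list apart. Ccl8 fell from 420.4 and 419 to 160.4 and 157 FPKM (log2 fold change -1.40, SE 0.34, adjusted p = 0.00097), and Cxcl12 fell from 66.2 and 68.2 to 25.9 and 26.8 FPKM. Ccl20, a ligand of Ccr6, rose from 2.16 and 1.87 to 14.2 and 14.1 FPKM (log2 fold change 2.33, SE 0.26, adjusted p = 2.1e-08), and Ccl19 rose from 11.6 and 10.7 to 31.7 and 27.4 FPKM. Ccl2 had 7.6 and 8.31 FPKM in the DCT libraries and 9.97 and 15.7 FPKM in the DEA libraries and passed as deposited only. The chemokines were 9 higher and 4 lower as deposited, and 9 and 6 after rescaling with refractory telogen as baseline. Of 6 red blood cell genes, 0 rose and 1, Slc4a1, fell (from 4.88 and 4.79 to 1.43 and 1.1 FPKM).

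Transcripts that react to handling or to time of day also differed. Of 12 immediate early genes, which rise within minutes of a stimulus or of tissue dissection, 9 rose, and their sum was 495 and 496 FPKM in the DCT libraries and 1179 and 1139 FPKM in the DEA libraries. Fos had 35.5 and 36.5 FPKM in the DCT libraries and 251 and 246 FPKM in the DEA libraries (log2 fold change 2.75, SE 0.15, adjusted p = 6.4e-15), Fosb rose from 1.41 and 1.15 to 16.9 and 16.97 FPKM, Atf3 from 1.63 and 2.15 to 21.2 and 18.9 FPKM, and Nr4a1 from 6.76 and 6.75 to 45.6 and 42.2 FPKM. On the refractory telogen baseline these genes were 10 higher and 0 lower as deposited, and 4 and 1 after rescaling. Of 15 tested clock genes, 2 rose and 5 fell, beside 20.8% and 10.5% of all genes tested. Dbp fell from 36.7 and 33.05 to 8.12 and 9.01 FPKM (log2 fold change -1.91, SE 0.20, adjusted p = 5.9e-09) and Arntl rose from 4.37 and 4.69 to 7.96 and 8.57 FPKM. The 5 lower clock genes became 3 with any 1 library left out and 1 on TPM, and the 5 higher as deposited became 2 to 4, the fewest without DEA2. The hour at which skin was taken was not given in the sources used here, so time of day and stage cannot be told apart.

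Mitochondrially encoded transcripts depended on the baseline, with a sum of 21172 and 21211 FPKM in the DCT libraries and 56848 and 68619 FPKM in the DEA libraries. Of 13, 8 rose from competent telogen. Against refractory telogen there were 6 higher and 2 lower as deposited, and 0 and 2 after rescaling, with a rescaled median of -0.02. mt-Co1 went from 1397 and 1394 to 6126 and 5955 FPKM (log2 fold change 2.11, SE 0.10, adjusted p = 1.3e-16), while mt-Co2 overlapped between the stages. Ribosomal protein genes had a median log2 fold change of 0.06. Of 79, 1 rose and 4 fell, with 29 lower after rescaling. Other scalings turned this split, with 48 higher and 2 lower by quantile normalization and 34 and 1 on TPM, so no direction is given for this list. The part of dissection, hour and mitochondrial share in the other results was not tested.

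**Figure D4:**
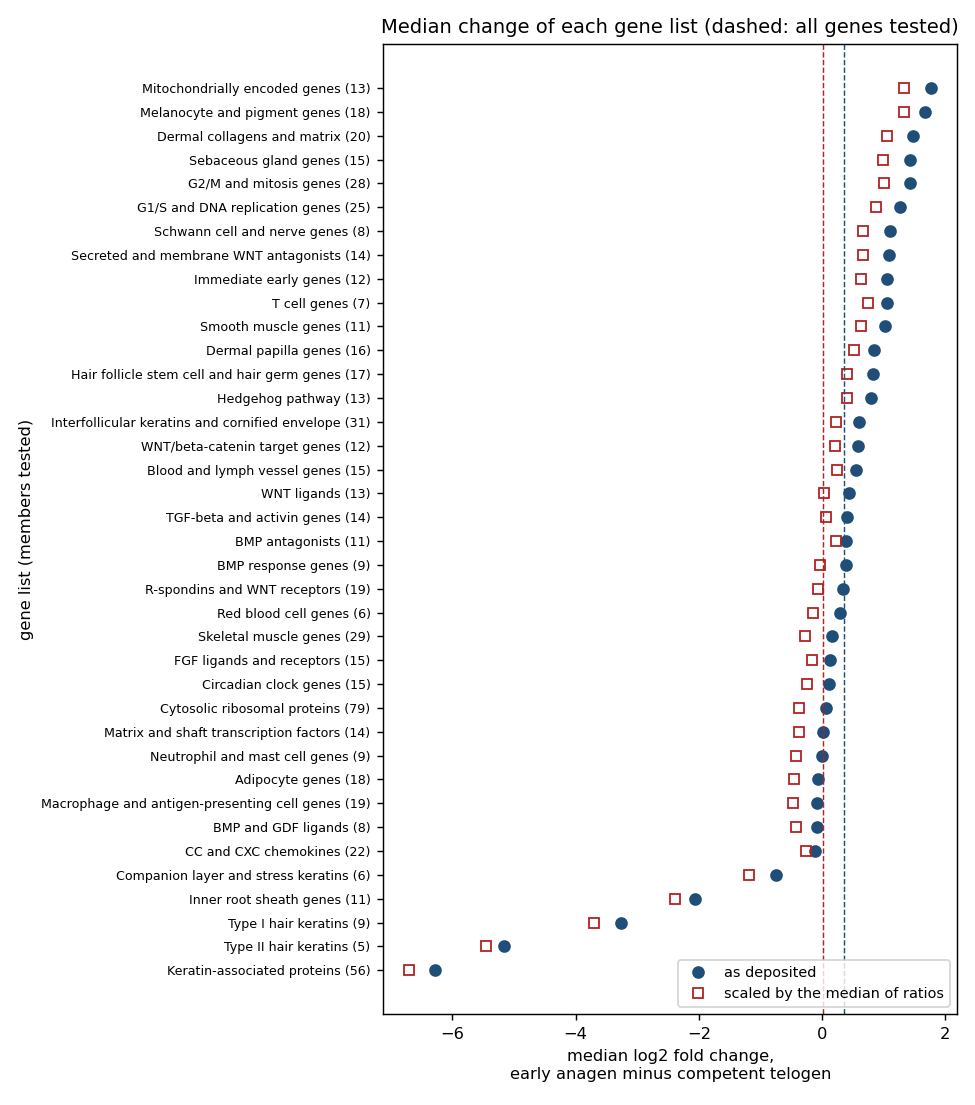
Median log2 fold change (early anagen minus competent telogen) of 38 gene lists, with the number of members tested, as deposited (blue circles) and rescaled by the median of ratios (red squares); dashed lines are the medians of all genes tested, 0.35 and 0.01. KAPs, hair keratins and inner root sheath genes lie far to the left, and mitochondrial, pigment, collagen, sebaceous and cell cycle genes to the right.

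The study had listed putative activators and inhibitors of hair growth from an expression series of whole skin other than these samples. Of 236 activators, 230 were tested, of which 184 were higher and 7 lower as deposited, beside 45.1% and 10.5% of all genes. After rescaling the counts were 131 and 15, beside 20.8% and 22.0%. The median log2 fold change was 0.84 or, after rescaling, 0.46. Besides Shh, Tgfb3, Vcan and Nr4a1, given above, the list holds Dbp, which fell. Of 119 tested inhibitors, 22 were higher and 33 lower as deposited, and 6 and 71 after rescaling, with medians of -0.05 and -0.47. The deepest drop among inhibitors was that of Pla2g2e, a secreted phospholipase, from 237 and 235 to 16.5 and 17.7 FPKM (log2 fold change -3.71, SE 0.12, adjusted p = 2.1e-20).

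Whether the dorsal change was shared by other skin was asked with the same 2 labelled stages in ventral skin (3 libraries each) and chin skin (2 each), none of which are shared with the dorsal contrast. The ventral and chin libraries labelled competent telogen held mitosis sums over those of DCT1 and DCT2 and KAP sums under them. The ventral libraries labelled early anagen held mitosis sums under the 127 to 133 FPKM of dorsal refractory telogen, which goes against their label, and the ventral contrast is therefore also one between libraries so labelled. The dorsal change differed from the ventral change for 10334 of 16674 genes (62.0%) and from the chin change for 7326 (43.9%), by the interaction contrasts of limma. After rescaling these counts were 8427, with 4151 above 0 and 4276 below, and 5459, with 2565 above and 2894 below. In ventral skin 8639 genes passed between the stages, 2504 higher and 6135 lower as deposited, with a split of 3980 and 3971 after rescaling. In chin skin 442 passed, 255 higher and 187 lower, with 2279 at an unadjusted p under 0.05.

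The KAP genes had medians of opposite sign in the domains. Their summed level was 6376 to 7909 FPKM in ventral competent telogen and 38161 to 39211 in ventral early anagen, and 6482 to 6905 and 19791 to 21319 FPKM in chin. The median log2 fold change was -6.28 in dorsal, 1.06 in ventral and 1.36 in chin skin, and all 56 tested KAP genes passed both interaction contrasts. Krtap6-3 had 938 and 909 FPKM in the DCT libraries and 0 and 3.07 FPKM in the DEA libraries, against a ventral log2 fold change of 8.79 and a chin one of 3.29. Levels of dorsal and ventral skin thus crossed. DCT1 and DCT2 were over any ventral or chin library of these 2 stages, and DEA1 and DEA2 under all of them.

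Mitosis genes ran the other way. Their sum was 815 to 959 FPKM in ventral competent telogen and 88.9 to 106 in ventral early anagen, and 696 to 767 and 632 to 848 FPKM in chin. Medians were 1.42 in dorsal, -2.56 in ventral and -0.02 in chin skin, and 28 of 28 passed each interaction. Shh had a dorsal log2 fold change of 1.93, a ventral one of -3.17 and a chin one of -0.22, and the dorsal minus ventral difference was 5.11 (SE 0.32, adjusted p = 6.4e-14). Of 13 Hedgehog genes, 11 passed the ventral and 11 the chin interaction.

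Collagens had medians of 1.47, -1.32 and 0.11 in dorsal, ventral and chin skin, with 20 of 20 past the ventral interaction. Pigment genes had medians of 1.67, -1.67 and -0.25, and all 18 passed it. Pmel had a dorsal minus ventral difference of 6.25, and Wif1 one of 6.10. With these labels in doubt, a difference in the stage reached and one between domains cannot be told apart here.

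**Figure D5:**
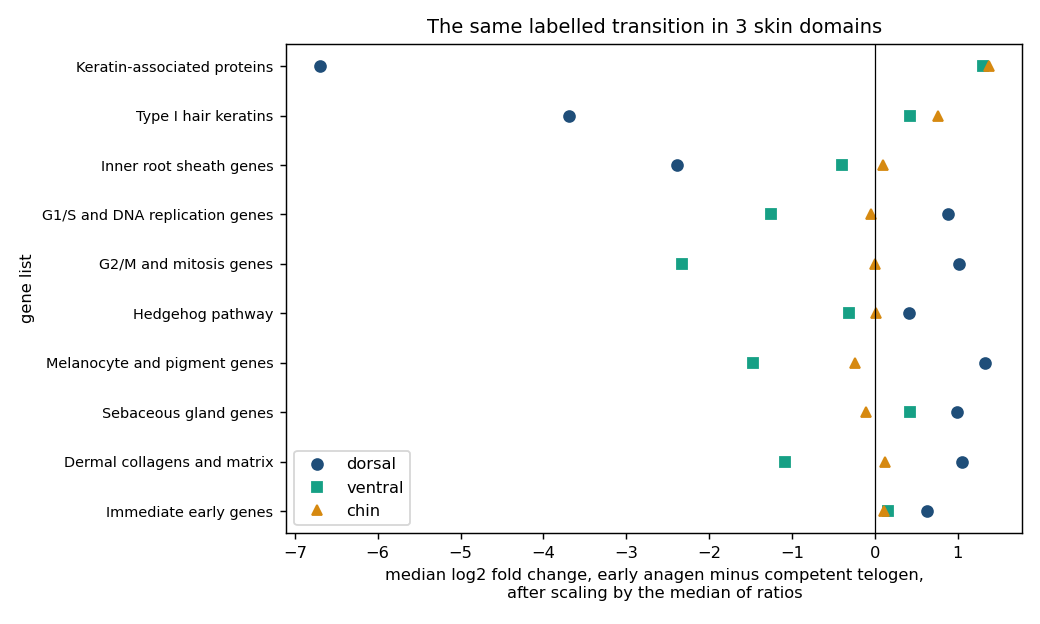
Median log2 fold change (early anagen minus competent telogen, rescaled by the median of ratios) of 10 gene lists in dorsal (circles, 2 libraries a stage), ventral (squares, 3) and chin skin (triangles, 2). KAP, type I keratin and inner root sheath medians are far below 0 in dorsal skin alone, and cell cycle, pigment and collagen medians are above 0 in dorsal and below 0 in ventral skin.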

How the data were processed

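The authors aligned paired-end reads of SMART-seq2 libraries from whole skin RNA to mm10 (GENCODE vM8), estimated expression with RSEM 1.2.25, and deposited FPKM values with 2 decimals; they state a batch correction without naming the batches, and the effect of that on these values is unknown. No counts were at hand, so no count model was fitted here. Libraries were grouped from their labels. Log2(FPKM + 1) was fitted with limma 3.58.1 in R 4.3.3 (empirical Bayes with a variance trend) over 43 skin samples as 18 groups, for genes that reached 0.5 FPKM in 2 or more of the 4 dorsal samples, with Benjamini-Hochberg adjusted p under 0.05. The fit was tested on simulated data. Depth was estimated from the FPKM steps. Tables and figures were made with Python 3.11.15, pandas 2.3.3, numpy 2.4.6 and matplotlib 3.10.9. Positions came from GENCODE vM21 on GRCm38 and promoters from RefSeq. Values of some list members are not reported here. Without strand information, overlapping antisense genes cannot be told apart.

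The members and lists were chosen with earlier results of these data known. Named genes are a fixed set of follicle genes, up to 6 members of each list with the largest change past the threshold and at least 1 FPKM, the 12 largest changes in each direction with at least 5 FPKM, and the 6 largest of each interaction in each direction; genes outside this rule are marked as chosen after their values were seen or are the rest of a short count. The alternatives were a pseudocount of 0.1, no filter, a minimum of 5 FPKM, TPM, the median of ratios, quantile normalization, no trend, the 4 or 14 dorsal samples alone, a replicate block and each library left out. Rescaling without shaft and sheath genes, the refractory telogen baseline and the TATAAA motif were added after seeing the data.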

Additional observations from a re-analysis of the deposited data

Results flagged for a closer look

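Results were picked out here because the change between the labelled stages in dorsal skin differed from that in ventral or chin skin by the interaction contrasts of limma. No group of these stages has 4 or more libraries, so single libraries were not tested as outliers. The dorsal change differed from the ventral one for 10334 genes and from the chin one for 7326 genes.

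The largest positive differences between the dorsal and the ventral change, on the log2 scale, were those of Gnmt, a glycine methyltransferase (7.81), mt-Nd4l (7.31), Pmel (6.25), Wif1 (6.10), Hist1h2ae (5.91) and Hist1h2ag (5.75). The largest negative ones were those of Krtap6-3 (-17.6), Krtap19-9b (-16.7), Krtap20-2 (-16.3), Krtap19-5 (-15.7), Krtap6-2 (-15.7) and Krtap6-1 (-15.4). Single KAP and histone genes share reads with close copies.

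Against the chin change, the largest positive differences were those of mt-Nd4l (10.5), Serpinb6e (5.57), Serpina3j (5.31), Hsd3b6 (4.89), Serpina3b (4.34) and Skint5 (4.29). The largest negative ones were those of Krtap19-9b (-13.9), Krtap19-3 (-13.2), Krtap19-5 (-13.1), Krtap19-9a (-13.0), Krtap19-2 (-13.0) and Krtap21-1 (-12.4). mt-Nd4l was listed at 0 in both dorsal competent telogen libraries, so its fitted values depend on the pseudocount.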

How the results depend on the processing

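The total of 9263 genes stayed within 1.5 times under the alternatives that were run, and its split moved with the scaling. Of 7516 higher genes, 3470 were left by the median of ratios, while quantile normalization gave 4289 and refractory telogen with the median of ratios gave 4076. The 1747 lower genes became 3664, 2913 and 3889. TPM moved the split the other way, to 9536 higher and 1257 lower. The 13 higher Hedgehog genes became 8 with a minimum of 5 FPKM, where 8 were tested, 7 by the median of ratios, 7 by quantile normalization and 8 with refractory telogen and the median of ratios. With 1 library left out the totals were 7487 to 7758, with 5997 to 6338 higher and 1420 to 1490 lower, and the interactions numbered 9403 to 9567 (ventral) and 6154 to 6468 (chin). After scaling by the median of ratios the sign turned for Cux1 (-0.0386), Dlx2 (-0.00145), Fstl3 (-0.291), Mgst1 (-0.336), Nkd2 (-0.387) and Vdr (-0.132), and quantile normalization turned Fstl3 (-0.238); the cause was not tested. Of the 331 named genes, 281 kept direction and side of the threshold by the median of ratios, 287 by quantile normalization and 300 to 306 with 1 library left out. Same-numbered libraries of the 2 dorsal groups did not deviate together (r = 0.0155 over 16674 genes). With only 1 pair of libraries in each group, this cannot tell whether the numbers share a mouse or a preparation. With the replicate block 9253 genes were called over 43 samples and 9325 over the 4. Rescaling to an equal sum of all genes but those of shaft and sheath gave 8701, with 6974 higher and 1727 lower. The source of the excess of higher genes was not tested. Genes at low FPKM are limited by depth.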
